A study of Homo sapiens with 4 samples.

Results

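The forkhead, GATA and T-box genes encode 3 families of DNA-binding proteins that set up germ layers, organs and cell states. They were found by symbol in the deposited table (FOX genes from A to S, GATA1 to GATA6, the TBX genes, EOMES and T, the older symbol of TBXT, with FOXH1 left out), which gave 38 of the 17472 listed genes. Of these, 26 are forkhead, 4 GATA and 8 T-box genes. RNA-seq was done on the established human embryonic stem cell line H1, in E8, a defined medium whose factors include FGF2 and TGFβ. The WT group has 2 libraries of H1 cells with no added gene. The MEK5DD group has 2 libraries of 1 H1 line that overexpresses MEK5DD, brought in by lentivirus and kept by puromycin selection. MEK5DD is a form of the kinase MEK5 (MAP2K5) with aspartate in place of 2 amino acids. Both groups were grown in the same medium, and no cells with an empty vector are among the samples, so the added kinase, the virus, the selection and the derivation of the line cannot be told apart.

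Forkhead proteins bind DNA through a winged-helix domain. FOXA proteins open chromatin in endoderm, FOXO proteins are held in the cytoplasm when insulin signalling is active, and FOXM1 drives mitotic genes. GATA proteins bind the GATA motif through zinc fingers and act in blood, trophoblast, heart and endoderm, while T-box proteins such as EOMES and TBXT start the primitive streak and others pattern heart, limb and pharynx. Undifferentiated human embryonic stem cells are known for low levels of most lineage members of these families.

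The 250 bases before a RefSeq start site are shown for TBX5, the member with the largest fall, and FOXO4, the abundant member with the largest rise. They are also shown for TBX19, the called member whose window holds a GATA motif. For FOXL2 the gap shared with the gene next to it is shown. TBX5 has another RefSeq window, not printed, and the printed one lies within the antisense gene TBX5-AS1. Start sites differ between annotations: in the coordinates given further below FOXO4 begins at 71096197, beyond the end of its window. The sequences come from RefSeq (GRCh38.p14) and are written 5′ to 3′ on the strand of the named gene. Capitals mark AGATAA in TBX19 and CCGCCC, the SP1 motif GGGCGG on the other strand, in FOXL2. The windows lie at chr12:114408443-114408692 (minus strand, TBX5), chrX:71095601-71095850 (plus strand, FOXO4), chr1:168280627-168280876 (plus strand, TBX19) and chr3:138947141-138947233 (minus strand, FOXL2).
TBX5: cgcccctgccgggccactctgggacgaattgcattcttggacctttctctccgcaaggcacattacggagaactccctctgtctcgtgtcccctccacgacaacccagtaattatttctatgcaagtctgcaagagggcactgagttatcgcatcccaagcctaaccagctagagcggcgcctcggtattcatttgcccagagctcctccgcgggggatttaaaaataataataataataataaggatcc
FOXO4: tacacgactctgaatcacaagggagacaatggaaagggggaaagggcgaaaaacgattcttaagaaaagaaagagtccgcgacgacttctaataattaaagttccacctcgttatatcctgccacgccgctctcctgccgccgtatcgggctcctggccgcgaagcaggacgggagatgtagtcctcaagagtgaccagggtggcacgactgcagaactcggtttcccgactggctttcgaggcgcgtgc
TBX19: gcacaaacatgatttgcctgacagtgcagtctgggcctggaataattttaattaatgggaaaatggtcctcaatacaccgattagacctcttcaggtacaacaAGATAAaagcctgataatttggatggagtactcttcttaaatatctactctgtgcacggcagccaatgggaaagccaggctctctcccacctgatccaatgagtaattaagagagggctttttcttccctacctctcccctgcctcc
FOXL2: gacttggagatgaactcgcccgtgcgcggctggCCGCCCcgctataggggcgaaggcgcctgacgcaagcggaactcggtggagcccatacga
The TBX5 window holds 13 CpG dinucleotides, the FOXO4 window 21, the TBX19 window 2, and the FOXL2 gap 12 in 93 bases.

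The libraries held 14908486 to 17628945 recovered reads. MAP2K5, the check of the labels, had a normalised read count of 344 and 315 in WT and 3382 and 3558 in MEK5DD (log2 fold change 3.40, SE 0.08, adjusted p = 5.91e-11, limma), which counts native and added transcripts together. All 12 pluripotency markers were listed, with a summed value of 168491 to 170505 in WT and 163141 to 170645 in MEK5DD. Of 10 fibroblast or feeder markers, 5 were listed, and their sum ran from 7034 to 7142 in WT and from 8129.9 to 8439.6 in MEK5DD. COL1A1 and COL1A2 were higher (log2 fold change 0.64 and 0.75). THY1, which makes up most of that sum (5775 and 5704 in WT, 6214 and 6072 in MEK5DD), did not pass (0.10), nor did PDGFRA (0.10) or PDGFRB (-0.39). The sum therefore mostly follows THY1, and bulk values cannot tell which cells its RNA came from. THY1 passed without MEK5DD replicate 2 (adjusted p = 0.0380). COL3A1, DCN, LUM, POSTN and FAP were not analysed here, and the part of such cells in the results was not tested. Read counts gave a chi-square of 6.11 per degree of freedom between the MEK5DD libraries and 1.88 between the WT libraries, so the former pair had the wider spread. The labels name no separate cultures, so p-values here rest on a spread that may be only technical. In bulk RNA, fewer cells of a type and less RNA per cell cannot be told apart.

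In MEK5DD cells TBX5, FOXA1 and FOXL2 were lower, GATA3, GATA4 and TBX19 were higher, and FOXO4 rose 1.59-fold among the abundant members. The other 6 members past the threshold, FOXP4, FOXC1, FOXB1, FOXI3, FOXJ2 and FOXK1, moved by less than 1.5-fold. Of 37 members tested, 13 passed an adjusted p of 0.05 (35.1%), against 14.2% of all genes tested. Of the 13, 8 were higher, where 7.69% of all genes were, and 5 were lower, where 6.47% were. The forkhead genes had 5 higher and 4 lower of 26, the GATA genes 2 higher of 4, and the T-box genes 1 higher and 1 lower of 7. The median log2 fold change was 0.02 over the members and -0.0023 over all genes, and the median size without sign was 0.33 against 0.17. That size was 0.28 for the 22 members with a mean of at least 50 and 0.94 for the 15 with a lower mean. The sizes of all genes at those levels were not computed. The 2 groups did not overlap for 26 of the 37 members (70.3%), against 56.2% of all genes tested. Without the 6 members, named below, that passed the filter through 1 group alone, it was 20 of 31 (64.5%). The share of all such genes was not computed. Members that changed at least 2-fold and were called numbered 4 (TBX5, FOXA1, GATA3 and GATA4), against 2.44% of all genes. The filter asked for 2 or more libraries at 10 or above, and 6 members (TBX5, FOXA1, GATA4, EOMES, TBX3 and TBX10) passed it through 1 group alone. Among the 31 that reached 10 in some library of both groups, 10 were called (32.3%), against 14.1% of all such genes, and 1 of them, GATA3, at 2-fold or more, against 2.14% of all such genes. Leaving out a WT library lowered the count of 13 to 7 (without replicate 1) or 6 (without replicate 2), with 7.61% and 7.38% of all genes called, and leaving out a MEK5DD library gave 16 (without replicate 1) or 14 (without replicate 2), with 23.8% and 29.4%. The edgeR test called 13 members, with 14.7% of all genes. DESeq2 called 7, with 8.64% of the 15721 genes, a share that counts genes without an adjusted p, such as GATA4, as not called. A fit without the mean-variance trend called 3 (GATA4, TBX5 and FOXA1), with 2.79%.

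**Figure D1:**
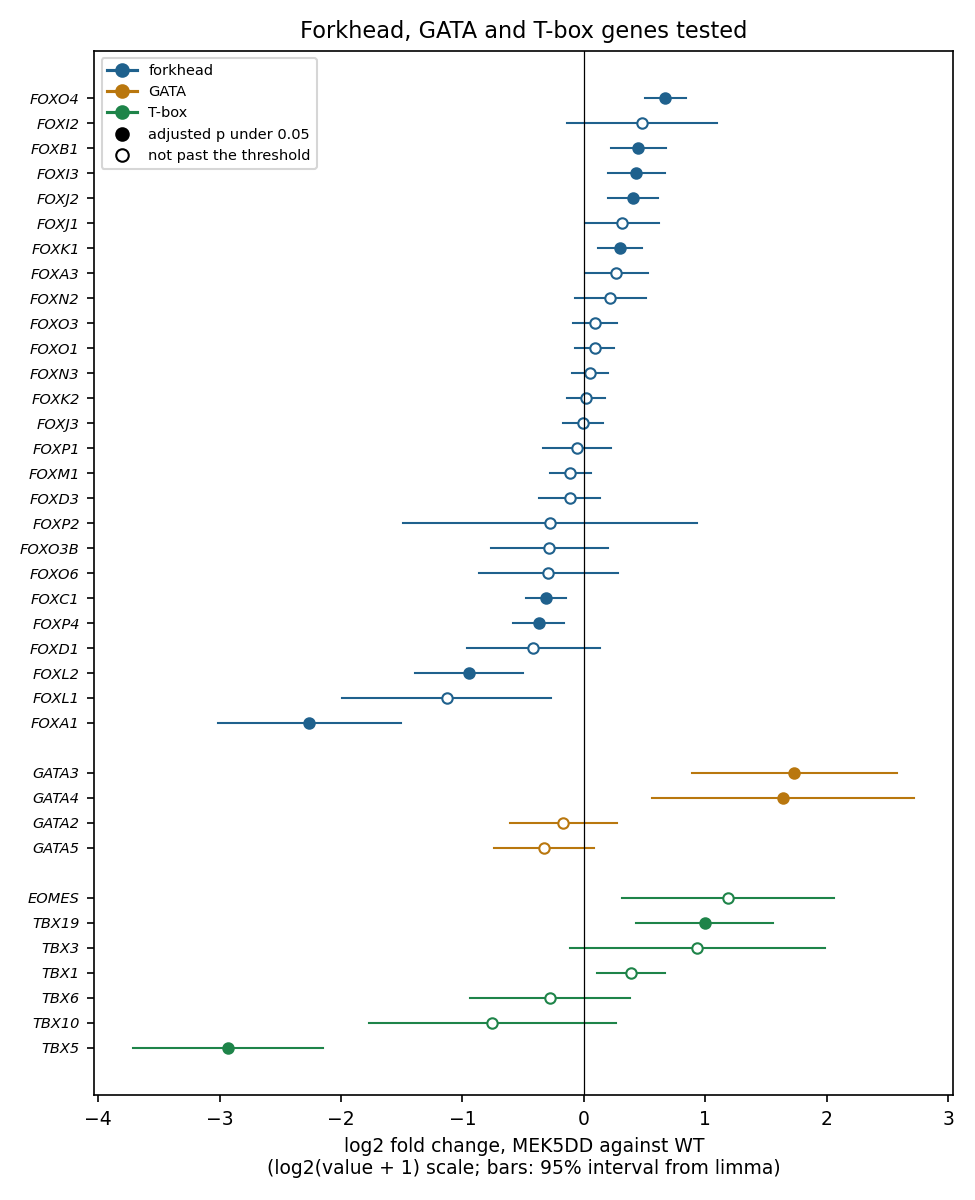
Log2 fold change of MEK5DD against WT, on the log2(value + 1) scale, for the 37 members tested, by family and ordered by size, with the 95% interval from limma. Filled points passed an adjusted p of 0.05; most forkhead genes lie near 0, while TBX5 at -2.93, FOXA1 at -2.26 and GATA3 at 1.73 lie farthest out.

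Levels per length were compared first, as RPKM, recovered reads scaled by exon length and by library total. In WT the highest were FOXM1 (21.2 and 24.2 in the 2 libraries) and FOXN3 (21.1 and 22.2), which overlap each other. Next came FOXC1 (15.2 and 15.6), FOXO4 (14.2 and 13.7) and FOXD3 (12.6 and 13.5), each set of values apart from the one before it. FOXO1 (11.9 and 12.6) overlaps FOXD3, and FOXJ3 (10.3 and 10.7) and FOXK2 (8.68 and 9.28) follow. In MEK5DD FOXO4 (22.4 and 21.2) stood level with FOXN3 (20.8 and 23.4) and above FOXM1 (20.8 and 20.4). Other lineage members ranged widely in WT. On the same scale the mean was 5.92 for FOXA3, 5.65 for FOXB1, 5.21 for FOXI3 and 4.92 for TBX1, but 0.945 for TBX5, 0.653 for FOXA1, 0.212 for GATA3, 0.150 for EOMES, 0.105 for TBXT and 0.0633 for GATA4, and FOXP2 was last at 0.0404. By reads without length, FOXN3, FOXM1, FOXK2, FOXO1, FOXJ3 and FOXO4 together held 60.9% and 61.3% of all member reads in WT and 60.4% and 62.3% in MEK5DD.

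FOXA1 encodes a pioneer factor of endoderm and its organs. Its normalised read count was 37.0 and 43.7 in WT and 7.27 and 7.97 in MEK5DD. The groups lie far apart with little spread in each, and the MEK5DD values rest on 8 reads in each library. It fell 4.79-fold (log2 fold change -2.26, SE 0.34, adjusted p = 0.00103). FOXA3, a liver-enriched member of the same subfamily, stood at 211 and 192 in WT and 249 and 236 in MEK5DD (log2 fold change 0.27, adjusted p = 0.165). The reads of FOXA1 were thus 0.175 and 0.228 times those of FOXA3 in WT and 0.0292 and 0.0338 times in MEK5DD. FOXA1 lies at chr14:37589984-37596059 on the minus strand (GRCh38).

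FOXL2, a factor of ovary and eyelid development, had 90.7 and 92.7 in WT and 54.5 and 40.9 in MEK5DD. All its MEK5DD values are below all WT values, and the MEK5DD pair is the wider one. It fell 1.92-fold (log2 fold change -0.94, SE 0.20, adjusted p = 0.00923). Its neighbour on the other strand, FOXL2NB, starts 93 bases away across the gap printed above and had 153 and 142 in WT and 90.0 and 101 in MEK5DD. FOXL2NB was lower too (log2 fold change -0.63, SE 0.15, adjusted p = 0.0161), and the 2 genes share 0 exon bases. FOXL2 lies at chr3:138944224-138947140. FOXL1, a factor of gut mesenchyme, had 35.2 and 21.9 in WT and 16.4 and 8.97 in MEK5DD. Those groups do not overlap, but the log2 fold change of -1.13 (SE 0.40) did not pass, with an adjusted p of 0.0805. It passed without MEK5DD replicate 1 (adjusted p = 0.00412) and with a replicate block (adjusted p = 0.0167).

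FOXC1, which acts in mesoderm and the anterior eye, had 925 and 949 in WT and 757 and 753 in MEK5DD. The spread within each pair is small beside the gap between them, and the fall was 1.24-fold (log2 fold change -0.31, SE 0.08, adjusted p = 0.0183). FOXP4, a repressor of the FOXP subfamily, had 655 and 725 in WT and 572 and 494 in MEK5DD, a 1.30-fold fall (log2 fold change -0.37, SE 0.10, adjusted p = 0.0249). FOXP1, its relative with roles in lymphocytes and heart, had 275 and 225 in WT and 228 and 251 in MEK5DD, with overlapping groups (log2 fold change -0.05, adjusted p = 0.829). An antisense transcript at FOXP4, FOXP4-AS1, had a mean of 20.7 in WT and 10.9 in MEK5DD (log2 fold change -0.86, adjusted p = 0.158) and shares 0 exon bases with FOXP4. With WT replicate 1 or 2 left out FOXC1 did not pass (adjusted p = 0.157 and 0.247), nor did FOXP4 with WT replicate 2 left out (0.265). DESeq2 gave both an adjusted p of 0.0544 (FOXC1 and FOXP4).

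FOXO4, one of the insulin-regulated FOXO factors, had 760.1 and 735 in WT and 1230.3 and 1150.2 in MEK5DD. Both MEK5DD libraries exceed both WT libraries by far more than the spread in either pair. It rose 1.59-fold (log2 fold change 0.67, SE 0.08, adjusted p = 0.000143). A fit that ignores the mean-variance trend gave FOXO4 an adjusted p of 0.0503. FOXO1, the most abundant FOXO gene by reads in WT, had 1150.3 and 1221 in WT and 1229 and 1295 in MEK5DD. Its groups barely separate, and its log2 fold change of 0.09 had a 95% interval from -0.07 to 0.25 (adjusted p = 0.475). FOXO3, the third FOXO gene at this level, had 617 and 648 in WT and 674 and 676 in MEK5DD (log2 fold change 0.09, 95% interval -0.09 to 0.27, adjusted p = 0.508). The interval of FOXO4, from 0.50 to 0.84, lies above both, although the difference between the genes was not tested. FOXO4 took 29.6% and 27.6% of the reads of FOXO1, FOXO3, FOXO4 and FOXO6 in WT and 38.6% and 36.5% in MEK5DD. FOXO4 and FOXO1 thus held nearly equal shares in MEK5DD replicate 1 (38.6% each). FOXO3B, a processed pseudogene that matches FOXO3 at 99.1% over 1928 bases, makes the values of that pair uncertain. FOXO4 lies at chrX:71096197-71103535. Of the nearest listed genes on either side, SNX12 was not called (log2 fold change 0.12, adjusted p = 0.345). IL2RG, the nearer one at 3.87 kb, was below the filter and not tested.

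**Figure D2:**
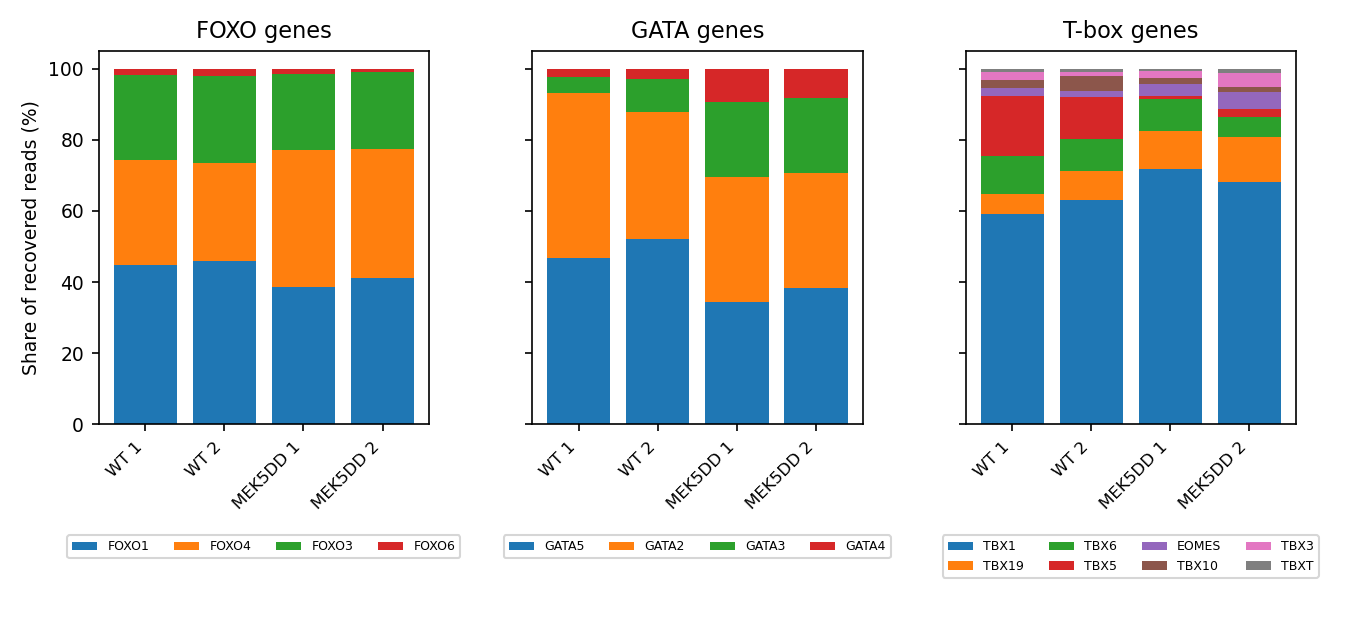
Share of recovered reads, in percent, that each gene holds within the FOXO, GATA and T-box genes in each of the 4 libraries. FOXO4 goes from 29.6% and 27.6% in WT to 38.6% and 36.5% in MEK5DD, GATA3 from 4.49% and 9.09% to 21.2% in both, and TBX5 from 16.9% and 11.8% to 0.962% and 2.16%.

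Among neural and ectodermal forkhead genes, FOXB1, expressed in the developing diencephalon, had 326 and 308 in WT and 462 and 407 in MEK5DD. FOXI3, a factor of placodes and pharyngeal ectoderm, had 227 and 226 in WT and 299 and 313 in MEK5DD. Neither gene's groups overlap, and both rose by a similar factor, FOXB1 1.37-fold (log2 fold change 0.45, SE 0.10, adjusted p = 0.0131) and FOXI3 1.35-fold (log2 fold change 0.43, SE 0.11, adjusted p = 0.0197). FOXD3, which acts in pluripotent cells and neural crest, had 407 and 436 in WT and 434 and 348 in MEK5DD, so that its groups overlap (log2 fold change -0.12, adjusted p = 0.565). FOXD3 shares 179 exon bases with FOXD3-AS1, which had 1812 and 1726 in WT and 2043 and 1786 in MEK5DD (log2 fold change 0.11, adjusted p = 0.391). No source used here says whether the counting took strand into account. Reads of the shared bases therefore cannot be assigned. FOXB1 lost its call without WT replicate 2 (adjusted p = 0.105), and FOXI3 with WT replicate 1 or 2 left out (adjusted p = 0.109 or 0.124) or under DESeq2 (0.0965). FOXD3 passed without MEK5DD replicate 1 (adjusted p = 0.0388) and changed sign without MEK5DD replicate 2.

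FOXJ2, of the FOXJ subfamily, had 510.0 and 524 in WT and 736 and 635 in MEK5DD, and it rose 1.32-fold (log2 fold change 0.40, SE 0.09, adjusted p = 0.0140). FOXJ3 had 1100.1 and 1148 in WT and 1073 and 1167 in MEK5DD, with overlapping groups and a 95% interval of the log2 fold change from -0.17 to 0.16 (adjusted p = 0.971). The reads of FOXJ2 were 0.464 and 0.456 times those of FOXJ3 in WT and 0.686 and 0.544 times in MEK5DD. FOXJ1, the master regulator of motile cilia, had 121 and 139 in WT and 163 and 159 in MEK5DD (log2 fold change 0.31, adjusted p = 0.167). FOXK1, a repressor of autophagy genes, had 568 and 615 in WT and 728 and 725 in MEK5DD, and it rose 1.23-fold (log2 fold change 0.30, SE 0.08, adjusted p = 0.0351). FOXK2, its close relative, had 1347 and 1439 in WT and 1448 and 1370.4 in MEK5DD and a 95% interval from -0.14 to 0.18 (adjusted p = 0.909). In these 2 pairs of relatives the less abundant gene was the one called, but FOXJ1, lower still, was not. Of FOXP4 and FOXP1, the more abundant gene, FOXP4, was called. Without WT replicate 1 or 2 the adjusted p of FOXJ2 was 0.0921 and 0.0551 and that of FOXK1 was 0.401 and 0.134, and DESeq2 gave FOXK1 0.119.

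FOXM1, the mitotic forkhead factor, had 1616 and 1842 in WT and 1626 and 1572 in MEK5DD. The groups overlap, and the 95% interval of the log2 fold change ran from -0.28 to 0.06 (adjusted p = 0.395). FOXM1 overlaps RHNO1 and ITFG2 on the other strand, neither of them called. Of the nearest listed genes beside it, TULP3, 0.067 kb away, was higher (log2 fold change 0.43, adjusted p = 0.0119, limma). NRIP2, on the other side, was not called. FOXN3, a checkpoint factor and the member with the most reads, had 3620.0 and 3807 in WT and 3662 and 4048 in MEK5DD (log2 fold change 0.05, 95% interval -0.10 to 0.20, adjusted p = 0.672). FOXN2 had 374 and 465 in WT and 429 and 550.2 in MEK5DD, where replicate 2 was the higher in both groups (log2 fold change 0.22, adjusted p = 0.313). FOXN2 and FOXN3 passed only without MEK5DD replicate 1 (adjusted p = 0.000499 and 0.0468).

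GATA3, a factor of trophectoderm, T cells and breast epithelium, had 7.05 and 15.6 in WT and 39.1 and 35.9 in MEK5DD. The MEK5DD libraries agree closely while the WT libraries differ by more than 2-fold, on 8 and 15 reads against 43 and 36. The rise was 3.32-fold (log2 fold change 1.73, SE 0.39, adjusted p = 0.0109), and it was 0.107 without the mean-variance trend. GATA4, a factor of heart and endoderm, had 3.52 and 5.21 in WT and 17.3 and 14.0 in MEK5DD, from 4, 5, 19 and 14 reads. It rose 3.12-fold (log2 fold change 1.64, SE 0.50, adjusted p = 0.0456), and its call was lost when WT replicate 1, WT replicate 2 or MEK5DD replicate 1 was left out (adjusted p = 0.202, 0.0790 and 0.110). GATA2, the blood and endothelial member, had 73.1 and 61.5 in WT and 64.5 and 54.8 in MEK5DD (log2 fold change -0.17, adjusted p = 0.640). GATA5, a member of the heart and endoderm class, had 73.1 and 89.6 in WT and 63.6 and 64.8 in MEK5DD (log2 fold change -0.33, adjusted p = 0.286). All reads of the 4 genes came to 178 and 165 in WT and 203 and 170 in MEK5DD, so the total overlaps while its makeup differs. GATA3 held 4.49% and 9.09% of them in WT and 21.2% in both MEK5DD libraries. GATA4 held 2.25% and 3.03% in WT and 9.36% and 8.24% in MEK5DD. The reads of GATA3 were 0.0964 and 0.254 times those of GATA2 in WT and 0.606 and 0.655 times in MEK5DD. GATA3 lies at chr10:8045378-8075203 on the plus strand. The nearest listed genes on either side, TAF3 at 28.75 kb and CELF2 at 2723.2 kb, were not called.

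TBX5, the T-box factor of heart and forelimb, had 74.9 and 53.1 in WT and 5.45 and 9.97 in MEK5DD, from 85, 51, 6 and 10 reads. The groups lie far apart, although each pair differs within itself. It fell 7.62-fold (log2 fold change -2.93, SE 0.36, adjusted p = 0.000211). TBX5-AS1, an antisense transcript that starts within TBX5 and runs away from it, had 47.6 and 52.1 in WT and 7.27 and 4.98 in MEK5DD. It was lower by nearly the same factor (log2 fold change -2.85, SE 0.35, adjusted p = 0.000237) and shares 252 of the 4363 exon bases of TBX5. Without the strand setting, the reads of those bases cannot be assigned to either gene. On the side of TBX5 away from the antisense start, the next listed gene, RBM19, was not called (log2 fold change -0.11, adjusted p = 0.399). On the other side lies TBX3, a factor of limb, breast and heart conduction, with 9.69 and 5.21 in WT and 11.8 and 17.9 in MEK5DD (log2 fold change 0.94, SE 0.48, adjusted p = 0.233). The reads of TBX5 were 7.73 and 10.2 times those of TBX3 in WT and 0.462 and 0.556 times in MEK5DD. TBX5 lies at chr12:114353931-114408442 on the minus strand.

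TBX19, the pituitary corticotroph factor, had 23.8 and 36.5 in WT and 61.8 and 57.8 in MEK5DD. Both MEK5DD values are above both WT values, and the WT pair is the wider one. The rise was 1.99-fold (log2 fold change 1.00, SE 0.26, adjusted p = 0.0235), and it did not pass when WT replicate 1 was left out (adjusted p = 0.170) or under DESeq2 (0.104). EOMES, a factor of the primitive streak and endoderm, had 9.69 and 7.29 in WT and 19.1 and 21.9 in MEK5DD. Its groups do not overlap, but its log2 fold change of 1.19 (SE 0.40, 95% interval 0.32 to 2.06) had an adjusted p of 0.0693, and it passed only with a replicate block (adjusted p = 0.0330). TBXT, the brachyury gene, had 4.40 and 4.17 in WT and 3.63 and 5.98 in MEK5DD and was below the filter. TBX1, the pharyngeal arch factor and the T-box gene with the most reads, had 262 and 284 in WT and 406 and 315 in MEK5DD. MEK5DD replicate 1 stands well above the other 3 libraries, and the log2 fold change of 0.39 (SE 0.13) had an adjusted p of 0.0645. TBX1 passed without MEK5DD replicate 2 (adjusted p = 1.47e-05) and with a replicate block (adjusted p = 0.00626). TBX5 went from 16.9% and 11.8% of the T-box reads in WT to 0.962% and 2.16% in MEK5DD, and TBX1 from 59.2% and 63.2% to 71.6% and 68.3%. TBX19 lies at chr1:168281040-168314426 on the plus strand.

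**Figure D3:**
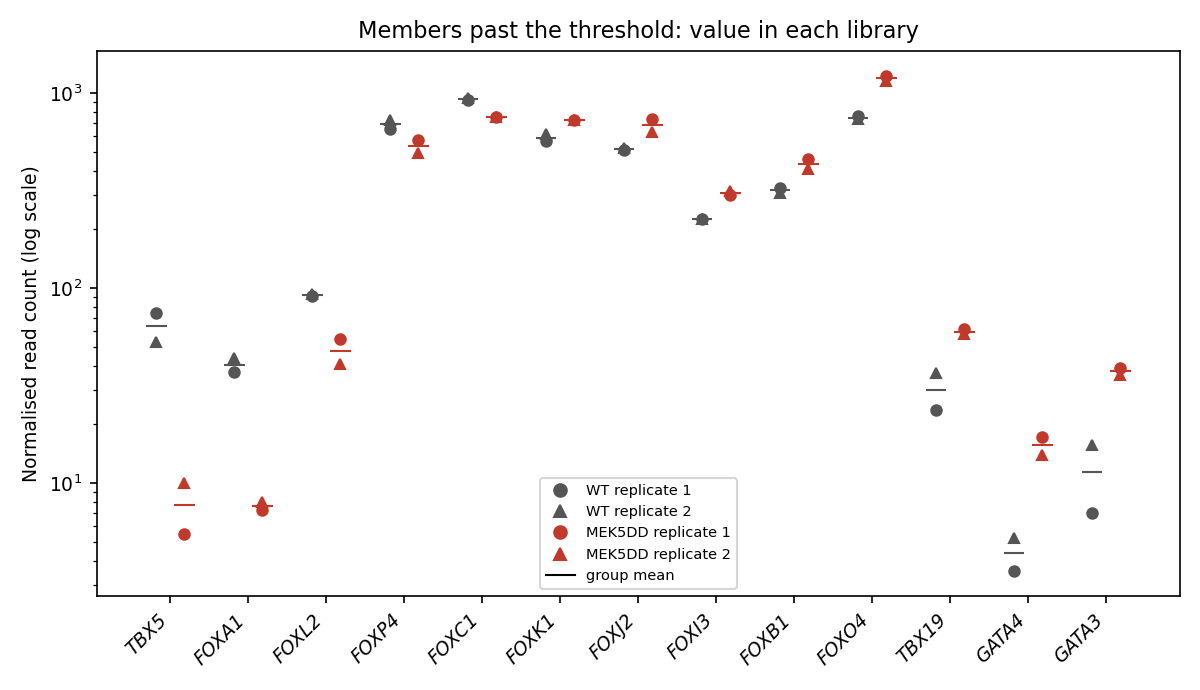
Normalised read count on a log scale in each of the 4 libraries for the 13 members past an adjusted p of 0.05, ordered from the largest fall to the largest rise, with bars at the group means. In each of the 13 the WT and MEK5DD libraries do not overlap, and the widest gaps belong to genes under 100 in every library, such as TBX5, FOXA1 and GATA3.

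The other members not called were FOXO3B, FOXO6, FOXD1, FOXI2, FOXP2, TBX6 and TBX10. With GATA2, GATA5 and TBX3 above, their adjusted p ran from 0.233 (TBX3) to 0.796 (FOXP2), and their log2 fold changes from -0.75 (TBX10) to 0.94 (TBX3). Over all 24 members tested and not called, the groups overlapped for 11. Members with a mean of at least 50 had 8 of 22 called (36.4%), against 16.6% of all such genes, and those with a lower mean had 5 of 15 (33.3%), against 5.68%, but 3 of these 5 (TBX5, FOXA1 and GATA4) had passed the filter through 1 group alone. The called changes of at least 2-fold all belong to members with a lower mean. Beside the 38 listed members, 23 forkhead, 2 GATA and 8 T-box protein-coding genes of the annotation were not analysed here, among them FOXA2, FOXF1, GATA1, GATA6, TBX2 and TBR1, as were HAND1 and MESP1.

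Of the nearest listed genes on either side of the called members, leaving out other members (TBX3) and overlapping genes (TBX5-AS1), 21 were tested and 3 were called (14.3%), near the 14.2% of all genes. Higher were EIF2AK3, 104 kb from FOXI3 (log2 fold change 0.54, adjusted p = 0.00172), and ANXA2, 285 kb from FOXB1 (log2 fold change 1.45, adjusted p = 9.21e-08), and lower was FOXL2NB.

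RefSeq windows of 250 bases before a start were found for 31 member genes, 50 windows in all. They held a median of 21.5 CpG dinucleotides, against 11 over all 35116 windows. On either strand, the SP1 motif GGGCGG was in 28 member windows (56%) and 42.6% of all windows, and the TATA motif TATAAA in 4 (EOMES, FOXA3, GATA3 and TBXT) and 10.7%. The families' own motifs were in few windows, both of the members and of all genes. The forkhead motif TGTTTAC was in 1 member window (FOXP1), 2% against 2.98% of all windows. The GATA motif AGATAA was in 2 (FOXP2 and TBX19), 4% against 9.17%, and the T-box half-site GGTGTGA in 1 (FOXB1), 2% against 2.76%. The motif of MEF2, a known ERK5 substrate family (CTA and TAG with NNNN between them), was in 2 windows, of FOXJ3 and FOXP1 (2.36% of all windows), neither of them called. A match is a run of letters and not a measured binding site. In TBX19 the AGATAA runs from base -147 to -142 before the start, in capitals above. SP1 letters are in the FOXL2 gap, from -63 to -58 before the RefSeq start, and there are none in the windows of TBX5 and FOXO4.

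Known targets and partners of the 3 families were then counted in lists, beside the 14.2% of all genes called. Of 18 FOXO target genes, 4 were higher and 2 lower, with a median log2 fold change of 0.11. Highest were KLF6, a zinc-finger factor gene, with 517 and 488 in WT and 2127 and 2121 in MEK5DD (log2 fold change 2.08), and PINK1, a mitophagy kinase gene, with 248 and 266 against 552 and 611 (log2 fold change 1.18). CITED2, a co-regulator gene, fell by 0.64 and SESN3, a stress-response gene, by 0.47 on the log2 scale. The other 2 higher genes were SESN1, a relative of SESN3 (log2 fold change 0.36, adjusted p = 0.0125), and GADD45A, a growth-arrest gene (0.40, adjusted p = 0.0353). SESN1 did not pass with WT replicate 1 left out (adjusted p = 0.207), nor GADD45A with WT replicate 1 or 2 left out (0.0623 and 0.313) or under DESeq2 (0.139). The remaining 12 targets, CDKN1B, TXNIP and CCNG2 among them, did not pass. Of 14 FOXM1 target genes, 0 were higher and 2 lower, SKP2 (log2 fold change -0.26) and PLK1 (-0.24), and the list's median was -0.03. Neither SKP2 nor PLK1 passed when WT replicate 1 (adjusted p = 0.345 and 0.300) or WT replicate 2 (0.282 and 0.348) was left out.

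Of 9 GATA cofactors and partners tested, 1 was higher and 3 lower, with a median log2 fold change of -0.06. RUNX1, a blood factor, had 18.5 and 22.9 in WT and 45.4 and 48.8 in MEK5DD (log2 fold change 1.16), and TAL1, its partner in blood formation, had 17.6 and 15.6 against 0.909 and 2.99, the latter from 1 and 3 reads. TAL1 passed the filter through WT alone. CCND1, the cyclin D1 gene, and EP300, an acetyltransferase gene, were the other 2 (log2 fold change -0.26 and -0.25), and the GATA cofactor ZFPM1 did not pass (-0.06). Without WT replicate 1 the adjusted p was 0.0552 for RUNX1, 0.126 for TAL1, 0.226 for CCND1 and 0.270 for EP300, and without WT replicate 2 it was 0.0925, 0.193 and 0.244 for the last 3. Of 6 T-box partners tested, SNAI1 was higher (log2 fold change 1.02) and DLL1 lower (-0.34), and the latter was lost without WT replicate 1 (adjusted p = 0.234) or 2 (adjusted p = 0.158). The median of that list was 0.12.

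Lineage lists give the setting of these values. The members named beside each list are examples and not all members of that lineage. Of 12 primitive streak and mesoderm genes, 8 were tested, with 5 higher and 1 lower (median log2 fold change 1.00). EOMES had a log2 fold change of 1.19 but was not called, and TBXT was below the filter and not tested. Of 9 definitive endoderm genes, 5 were tested, with 0 higher and 2 lower (median -0.83). That median is the value of SOX7, which passed the filter through WT alone and was not called. Among members, FOXA1 was lower and GATA4 higher, each passing the filter through 1 group alone, while FOXA3, GATA5 and EOMES were not called. Of 12 amnion and trophoblast genes, 5 were tested, with 0 higher and 3 lower (median -0.85). Among members, GATA3 was higher and GATA2 was not called. Of 12 anterior neural genes, 7 were tested, with 0 higher and 6 lower (median -1.21). LHX5, 1 of the 6, passed the filter through WT alone. Among members, FOXB1 was higher and FOXD3 did not pass. The pluripotency markers had 1 higher and 1 lower of 12 (median -0.05), and the fibroblast or feeder markers 2 higher and 0 lower of 5 (median 0.10).

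**Figure D4:**
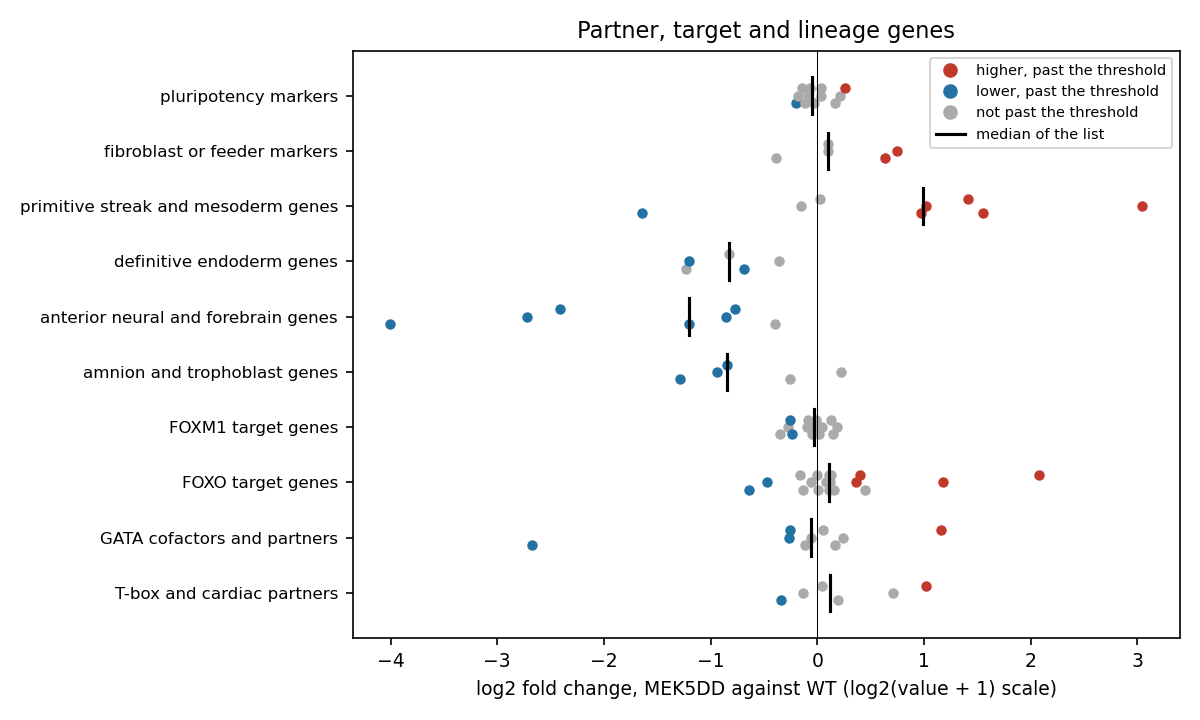
Log2 fold change of MEK5DD against WT for each tested gene of the target, partner and lineage lists, coloured by direction where the adjusted p passed 0.05, with a bar at each list's median. The FOXM1 targets lie close to 0 (median -0.03), the FOXO targets are mixed (median 0.11), and the anterior neural genes lie low (median -1.21).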

How the data were processed

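Poly(A) RNA of 4 libraries was measured as paired-end reads, per the labels' protocols. The deposited table gives a signal per gene: gene counts normalised by the authors, apparently by 1 factor per library. Named in the submitters' processing notes are hg38, STAR, DESeq2 1.26.0, featureCounts 1.5.3 and Trimmomatic 0.36. Each value was a whole multiple of its library's smallest value (largest departure 0.000121), and division by it recovered reads. In MEK5DD replicate 2 that value is so near 1 that this rests on the departure (6.86e-05) alone. Every listed gene has at least 1 read in each library.

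Members and lists were chosen with earlier results of these data known. limma 3.58.1 (R 4.3.3, mean-variance trend) was fitted on log2(value + 1) over the 15721 genes that reached 10 in 2 or more libraries, with Benjamini-Hochberg adjustment over all of them and a threshold of 0.05 (two-sided). Folds on that scale understate changes of low genes. The text gives per-library values for called members and for uncalled members with a mean of at least 100 or a log2 fold change of at least 1, and names up to 4 called genes a list; further genes were chosen after their values were seen. Coordinates and lengths came from GENCODE v29 (GRCh38), which holds 17035 of the symbols. Alternatives included DESeq2 1.42.0 and edgeR 4.0.16, both run on recovered reads.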

Additional observations from a re-analysis of the deposited data

How the results depend on the processing

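Other pseudocounts, upper-quartile and TMM factors, no filter and edgeR on the recovered reads left 13 members called. With a mean of at least 50 required, 8 were called of the fewer tested, without the mean-variance trend 3, with DESeq2 7, and 6 to 16 when 1 library was left out, where a lone sample is assumed to vary like the other group. Called in all 4 of those fits were FOXL2, FOXO4, GATA3, TBX5 and FOXA1. Over all genes, 2226 were called, against 439 without the trend, 1358 with DESeq2 and 1160 to 4629 with a library left out, 867 of them called the same way in all 4. List genes called numbered 35, against 16 without the trend and 23 to 50 with a library left out. Among named members, sign changes came only from leaving out a library: over those 4 fits the log2 fold change ran from -0.07 to 0.05 for FOXJ3 (above 0 with WT replicate 2, 0.02, or MEK5DD replicate 1 left out), from -0.28 to 0.04 for FOXD3 and from -0.02 to 0.12 for FOXN3 (MEK5DD replicate 2), from -0.20 to 0.09 for FOXP1 (WT replicate 1, or MEK5DD replicate 1, 0.01) and from -0.03 to 0.07 for FOXK2 (WT replicate 1, or MEK5DD replicate 1, -0.02). The marker PDGFRA ran from -0.29 to 0.48 (WT replicate 2). The cause was not tested. Depth limits members such as GATA4, GATA3, EOMES, TBX3, TBX5 and FOXA1, which had under 20 reads in at least 2 libraries.

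With a replicate block, 3349 genes and 16 members were called, the 3 more being TBX1, EOMES and FOXL1. Deviations of same-numbered libraries correlated at 0.047 over the genes tested and 0.124 over those averaging 100 or more. No shared batch is named in the labels and there are only 2 pairs, so the numbers are not taken to pair the samples.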
